A study of Mus musculus with 12 samples.

Results

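The 10 immediate early transcription factors Egr1, Egr2, Egr3, Fos, Fosb, Jun, Junb, Atf3, Nr4a1 and Ier2 were taken by gene symbol from a table of 55401 genes and followed through every sample. They were picked with their FPKM values in these samples already known, so their levels and changes are given as descriptions. No p-value is given for a single member, and counts of members past a threshold are a tally that tests nothing. FPKM counts sequenced fragments relative to transcript length and to the depth of the library. The samples are labelled as dermis of C57BL/6 mice aged 6 weeks, and they fall into 4 groups of 3 biological replicates. The groups are wild type (WT) on day 0, Cthrc1-/- on day 0, WT on day 7 and Cthrc1-/- on day 7 of a wounding experiment with paired wounds of equal size. Cthrc1 encodes a secreted glycoprotein that is made in healing tissue. All mice carry the same background strain, and the labels name no other allele or treatment, do not describe how Cthrc1 was deleted, and do not say whether day 0 tissue was intact or how many animals stand behind each sample. P-values therefore measure the spread between these samples only.

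Immediate early genes are transcribed within minutes of a stimulus, without the need for new protein synthesis, and their mRNAs are short-lived. Growth factors, wounding, mechanical force and tissue handling all induce them through MAP kinases, which act on serum response factor (SRF) with its cofactors and on the cyclic AMP response element binding protein CREB. The EGR proteins are zinc finger factors, the FOS and JUN proteins pair through leucine zippers to form AP-1, ATF3 is a stress-induced relative that can pair with JUN proteins, and NR4A1 is an orphan nuclear receptor. IER2 is a nuclear protein of the same early response and is not a classical DNA-binding factor.

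Total counts ran from 48329668 to 76938132 per sample. Cthrc1 was measured at 21.1 to 27.0 FPKM in WT day 0 and 74.0 to 106 FPKM in WT day 7, and at no more than 0.151 FPKM in any Cthrc1-/- sample. The markers of dermal fibroblasts, 6 of 6 measured, summed to between 337 and 6441 FPKM. Those of epidermal keratinocytes, 5 of 5 measured, summed to between 2243 and 9379 FPKM, so the tissue labelled dermis also held epidermal transcripts. Libraries of the same group differed in content. In Cthrc1-/- day 0 the 7 hair follicle markers summed to 219, 4804 and 11867 FPKM in replicates 1 to 3, against 3.29 to 5.91 FPKM in WT day 0. WT day 7 replicate 1 stood apart by its 5 neutrophil markers, which summed to 4829 FPKM against 739 and 38.6 FPKM in replicates 2 and 3. Because these are bulk samples, fewer cells of a type and less RNA per cell cannot be told apart.

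The members are compact genes. Their median genomic span was 5287 bases, against 22130 bases for the 12423 protein-coding genes tested, and the longest annotated transcript of a member had a median of 2 exons against 8. For Jun, Junb and Ier2 that transcript had a single exon. Upstream sequence from RefSeq (build GRCm38.p6), covering the 250 bases before a transcription start, was used for 7 of the 10. The upstream windows of Egr2, Fos and Nr4a1 are shown because Egr2 had the largest range over the samples, Fos was the most abundant member in WT day 0 and Nr4a1 was lower on day 7 in both genotypes without overlap. They lie at chr10:67537619-67537868 (plus strand), chr12:85473640-85473889 (plus strand) and chr15:101266596-101266845 (plus strand), and overlap no exon of their own gene in GENCODE M21. Each is written 5′ to 3′, and the capitals mark a CArG box (the element SRF binds), TGACG (the core of the cyclic AMP response element) or GCGNGGGCG (the EGR element), read on both strands.
Egr2: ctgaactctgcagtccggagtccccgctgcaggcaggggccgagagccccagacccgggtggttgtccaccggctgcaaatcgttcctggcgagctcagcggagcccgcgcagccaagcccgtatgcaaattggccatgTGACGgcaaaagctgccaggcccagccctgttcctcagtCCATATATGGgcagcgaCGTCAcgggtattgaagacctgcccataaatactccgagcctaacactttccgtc
Fos: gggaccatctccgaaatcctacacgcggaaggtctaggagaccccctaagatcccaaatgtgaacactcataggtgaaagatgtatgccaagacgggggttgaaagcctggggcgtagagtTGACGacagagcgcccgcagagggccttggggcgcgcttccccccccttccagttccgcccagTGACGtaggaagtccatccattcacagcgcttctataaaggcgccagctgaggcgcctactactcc
Nr4a1: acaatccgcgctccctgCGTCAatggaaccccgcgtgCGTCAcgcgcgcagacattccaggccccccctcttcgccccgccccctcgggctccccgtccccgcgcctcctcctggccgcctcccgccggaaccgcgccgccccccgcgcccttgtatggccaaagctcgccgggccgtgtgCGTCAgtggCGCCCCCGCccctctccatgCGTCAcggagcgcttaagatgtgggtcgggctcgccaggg
In this Egr2 window a CArG box lay 72 to 63 bases before the start, between a pair of TGACG matches. The Fos window held TGACG at 129 to 125 and at 66 to 62 bases before the start. Nr4a1 had 4 TGACG matches and 1 GCGNGGGCG match. TGACG was found in at least 1 window of 6 of the 7 genes, and 17.8% of all 32851 windows of the same length in the table held it. A CArG box was found for 1 of the 7, Egr2, in 4 of its 5 windows, and in 1.47% of all windows. Several of these Egr2 windows overlap and hold the same CArG box. The tallies count genes and the shares count windows, so the 2 are not like for like. A gene with several windows has more chances to match. GCGNGGGCG was found for 2 of the 7, Fosb and Nr4a1, and in 4.70% of all windows. The AP-1 element TGANTCA was found for 0 of the 7 and in 6.75% of all windows. A match is a description of the letters and not a binding site. Sequence further upstream than 250 bases was not searched. A gene without a match here, such as Fos for the CArG box, may therefore hold the element elsewhere.

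Of the AP-1 components, Fos, Junb and Jun had the highest levels of all members in WT day 0. Fosb stood below Egr1, Nr4a1, Atf3 and Ier2 there. Fos (ENSMUSG00000021250, chromosome 12, 85473890 to 85477273, GRCm38) encodes a leucine zipper partner of the JUN proteins. Its level was 888, 1004 and 897 FPKM in WT day 0 replicates 1 to 3, and 551, 384 and 248 FPKM in Cthrc1-/- day 0. On day 7 it was 274, 204 and 266 FPKM in WT and 179.8, 328 and 105 FPKM in Cthrc1-/-. All 3 WT day 0 libraries lay above every other library, the day 7 groups overlapped each other, and Cthrc1-/- day 0 overlapped Cthrc1-/- day 7. Fosb (ENSMUSG00000003545, chromosome 7, 19302696 to 19310051), a FOS relative, was at 199, 225 and 216 FPKM in WT day 0 and at 139.9, 79.1 and 34.1 FPKM in Cthrc1-/- day 0. On day 7 Fosb was at 49.3, 39.2 and 63.9 FPKM in WT and at 43.4, 74.5 and 25.9 FPKM in Cthrc1-/-. The Fosb level of Cthrc1-/- day 0 replicate 3 was thus below all 3 WT day 7 libraries. The ratio of Fosb to Fos was between 0.224 and 0.240 in WT day 0 and was lowest, 0.137, in Cthrc1-/- day 0 replicate 3.

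Jun (ENSMUSG00000052684, chromosome 4, 95049034 to 95052222), the founding JUN protein, had 432, 518 and 506 FPKM in WT day 0 and 394, 300.0 and 193 FPKM in Cthrc1-/- day 0. On day 7 Jun had 116, 155 and 236 FPKM in WT and 177, 240.4 and 122 FPKM in Cthrc1-/-. Its WT day 0 libraries were again above all others, and its lowest library was WT day 7 replicate 1. Junb (ENSMUSG00000052837, chromosome 8, 84974484 to 84978718), a JUN relative that can oppose JUN in growth control, had 673, 696 and 725 FPKM in WT day 0 and 639, 432 and 275 FPKM in Cthrc1-/- day 0. On day 7 Junb had 539, 208 and 284 FPKM in WT and 222, 309 and 178 FPKM in Cthrc1-/-. WT day 7 replicate 1 therefore held the highest Junb and the lowest Jun of its group. The ratio of Jun to Junb was 0.215 in that library and between 0.616 and 0.833 in the other 11. Prdx2, read from the opposite strand, overlaps Junb over 351 bases and was at 45.6 to 104 FPKM, and whether strand was used in counting is not given in the sources used here, so Junb levels carry that uncertainty. Atf3 (ENSMUSG00000026628, chromosome 1, 191170296 to 191218039) was at 329, 328 and 382 FPKM in WT day 0 and at 243, 137 and 65.8 FPKM in Cthrc1-/- day 0. On day 7 Atf3 was at 48.0, 51.6 and 72.8 FPKM in WT and at 57.1, 76.6 and 36.5 FPKM in Cthrc1-/-. Over the 12 samples Atf3 spanned 10.5-fold, more than Fos (9.55-fold), Fosb (8.69-fold), Jun (4.47-fold) or Junb (4.07-fold).

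The 3 EGR genes did not share a pattern. Egr1 (ENSMUSG00000038418, chromosome 18, 34859823 to 34864984) was at 425, 494 and 454 FPKM in WT day 0 and at 318, 230.1 and 148 FPKM in Cthrc1-/- day 0. On day 7 Egr1 was at 121, 97.7 and 134 FPKM in WT and at 109.8, 142 and 67.0 FPKM in Cthrc1-/-. Both day 0 groups lay above both day 7 groups, with the lowest day 0 value close to the highest day 7 value. Egr2 (ENSMUSG00000037868, chromosome 10, 67535475 to 67542188), which in skin also marks progenitors of the hair shaft, was at 33.5, 37.9 and 32.2 FPKM in WT day 0 and at 40.6, 37.1 and 25.2 FPKM in Cthrc1-/- day 0. On day 7 Egr2 was at 9.64, 3.66 and 13.3 FPKM in WT and at 4.95, 2.51 and 1.55 FPKM in Cthrc1-/-. The genotypes overlapped on both days, and the days did not overlap in either genotype. Egr2 spanned 26.1-fold over the 12 samples. Egr3 (ENSMUSG00000033730, chromosome 14, 70077203 to 70082614) was at 12.3, 13.3 and 13.0 FPKM in WT day 0 and at 19.3, 17.1 and 21.6 FPKM in Cthrc1-/- day 0. On day 7 Egr3 was at 9.71, 18.9 and 19.9 FPKM in WT and at 18.4, 12.1 and 16.9 FPKM in Cthrc1-/-. Egr3 was the exception among the 10, with its lowest group mean in WT day 0 and a span of 2.23-fold. On day 0 the ratio of Egr2 to Egr1 lay at 0.0709 to 0.0788 in the WT libraries and at 0.128 to 0.170 in the Cthrc1-/- libraries. On day 7 the order was the other way, with 0.0375 to 0.0992 for WT and 0.0177 to 0.0451 for Cthrc1-/-, and the genotypes overlapped.

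Nr4a1 (ENSMUSG00000023034, chromosome 15, 101254269 to 101274795) was at 343, 292 and 311 FPKM in WT day 0 and at 254, 169 and 84.3 FPKM in Cthrc1-/- day 0. On day 7 Nr4a1 was at 48.7, 47.4 and 75.6 FPKM in WT and at 43.8, 54.2 and 30.7 FPKM in Cthrc1-/-. Its day 0 and day 7 groups did not overlap, whichever genotypes were set against each other. Ier2 (ENSMUSG00000053560, chromosome 8, 84661331 to 84662852) was at 281, 349 and 339 FPKM in WT day 0 and at 279, 213 and 169 FPKM in Cthrc1-/- day 0. On day 7 Ier2 was at 99.4, 97.7 and 145 FPKM in WT and at 95.5, 124 and 83.5 FPKM in Cthrc1-/-. Ier2 was separated by day in the same way as Nr4a1, with a smaller span of 4.18-fold against 11.2-fold. For 8 of the 10 members the group means descended from WT day 0 through Cthrc1-/- day 0 and WT day 7 to Cthrc1-/- day 7. The exceptions were Jun, with its day 7 means in the reverse order, and Egr3. The last pair in that order overlapped for all 10 members.

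**Figure D1:**
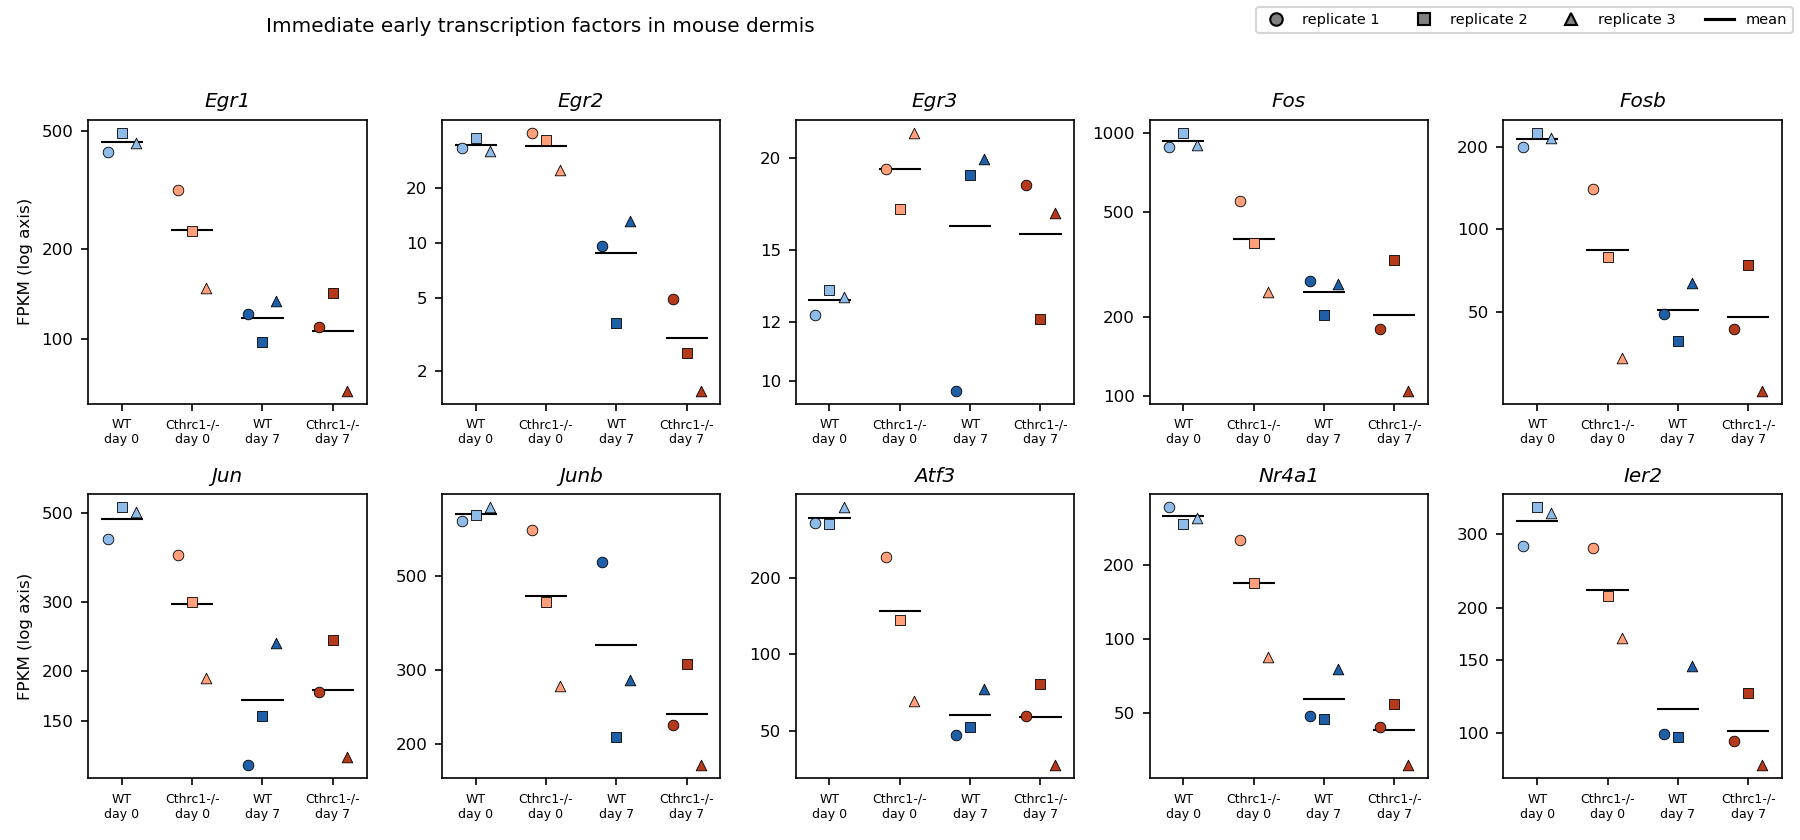
FPKM of each of the 10 genes (log axis, a separate range for each panel) in the 4 groups, with symbols for replicates 1 to 3 and bars for group means. WT day 0 holds the highest library for 8 of the 10 genes, and Egr3 has its lowest group mean there.

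Between days in WT, the members had a median log2 change of -2.11 in an edgeR quasi-likelihood fit over 14313 genes, where the median of all genes was -0.0019. A negative value means lower on day 7. The change was -2.79 for Atf3, with a standard error (SE) of 0.461, and -2.66 for Nr4a1 (SE 0.400), -2.26 for Fosb (SE 0.522) and -2.15 for Egr2 (SE 0.503). Egr1 had a log2 change of -2.14 (SE 0.348) and Fos of -2.08 (SE 0.427), both lower by over 4-fold. Jun and Ier2 differed less, by -1.73 (SE 0.346) and -1.70 (SE 0.248), and Junb by -1.17 (SE 0.434). Egr3 stood at 0.12 (SE 0.213), below its own SE. FPKM was lower on day 7 without overlap for 9 of the 10 members, and for 14.1% of all genes tested. A gene is called here at an edgeR adjusted p under 0.05, and 8 of the 10 were called lower, against 7.10% of all genes, with Junb and Egr3 not called. These counts describe genes chosen on the same samples. The number called was 4 without WT day 0 replicate 2, where Egr2, Fos, Fosb and Jun were not called, and 6 to 8 without any other single library. Over all genes 1880 were called as reported, 527 without WT day 0 replicate 2 and 570 to 3005 without any other single library.

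Between days in Cthrc1-/-, the members had a median log2 change of -1.20, with a median of -0.013 over all genes. Egr2 was the furthest from 0, at -3.68 (SE 0.536), a 12.8-fold lower level. Nr4a1 followed at -2.16 (SE 0.393), then Atf3 at -1.57 (SE 0.441), Egr1 at -1.30 (SE 0.339) and Ier2 at -1.29 (SE 0.245). The remaining 5 lay between -1.12 for Fos and -0.44 for Egr3. Egr1, Egr2, Nr4a1 and Ier2 did not overlap between days, 4 of the 10 members, and 4.99% of all genes were lower without overlap. Egr2, Nr4a1 and Ier2 were called lower, 3 of the 10, against 0.601% of all genes. That number rested on the fit and on single libraries. It was 1 with only the contrasted groups in the fit, where Nr4a1 and Ier2 were not called, and 2 with the replicate number as a block, where Ier2 was not called. It was 0 without Cthrc1-/- day 0 replicate 2, without Cthrc1-/- day 7 replicate 1 and without Cthrc1-/- day 7 replicate 2. It was 1 without Cthrc1-/- day 0 replicate 1, Cthrc1-/- day 7 replicate 3, WT day 7 replicate 2 or any WT day 0 replicate, and 5 without Cthrc1-/- day 0 replicate 3.

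On day 0, 8 of the 10 members were lower in Cthrc1-/- than in WT without overlap, and 19.8% of all genes were. Egr3 was higher without overlap, as were 21.5% of all genes, and Egr2 overlapped. The median log2 change of the members was -0.89, against -0.047 over all genes. The differences were -1.41 for Fosb (SE 0.508), -1.32 for Fos (SE 0.417), -1.30 for Atf3 (SE 0.438) and -1.07 for Egr1 (SE 0.337). Nr4a1, Jun, Junb and Ier2 lay between -0.98 and -0.65, Egr2 at -0.10 (SE 0.482) and Egr3 at 0.48 (SE 0.213). None of the 10 was called by edgeR, where 5.78% of all genes were. An unadjusted p under 0.05 was obtained for 8 members and for 4068 of the 14313 genes. DESeq2 called 4 members and 2787 genes, and limma on log2(FPKM + 1) 0 members and 601 genes. Without Cthrc1-/- day 0 replicate 1, edgeR called 6 members and 2146 genes. That replicate had the highest level of its group for 9 of the 10 members, and replicate 3 the lowest for 9 of the 10, with Egr3 the exception in both cases. The summed fibroblast, macrophage, smooth muscle, skeletal muscle and adipocyte markers were also highest in replicate 1 and lowest in replicate 3, and each sum was below WT day 0 without overlap. Keratinocyte, T cell and neutrophil sums had the same order. Of these, keratinocyte and T cell sums overlapped WT day 0, and neutrophil sums lay above it. The part of tissue content in the day 0 difference was not tested.

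On day 7 no member separated the genotypes without overlap, and 2.67% of all genes were lower and 6.46% higher in Cthrc1-/- in that way. The members' median log2 difference was -0.23, against -0.0055 over all genes. Egr2 was the furthest from 0 at -1.63 (SE 0.496), its Cthrc1-/- libraries at 1.55 to 4.95 FPKM and its WT libraries at 3.66 to 13.3 FPKM. Junb had a difference of -0.66 (SE 0.430) and Nr4a1 of -0.48 (SE 0.377), and the other 7 lay between -0.36 and 0.04. None of the 10 was called by edgeR, and 0.021% of all genes were. An unadjusted p under 0.05 was found for 1 member and for 782 of the 14313 genes. DESeq2 called 0 members and 62 genes, and limma on log2(FPKM + 1) 0 members and 8 genes. The interaction of genotype and day, which sets the day 7 to day 0 change of Cthrc1-/- against that of WT, called 0 of the 10 members and 0.014% of all genes by edgeR. It had 1 member and 2164 of all genes at an unadjusted p under 0.05. For the interaction DESeq2 called 0 members and 681 genes, and limma on log2(FPKM + 1) 0 members and 4 genes. The interaction was -1.53 on the log2 scale for Egr2 (SE 0.687), and it ran from 0.07 for Junb to 1.26 for Fosb in the 8 members above 0. The 4 comparisons and the interaction share groups with each other, so their values are not independent.

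**Figure D2:**
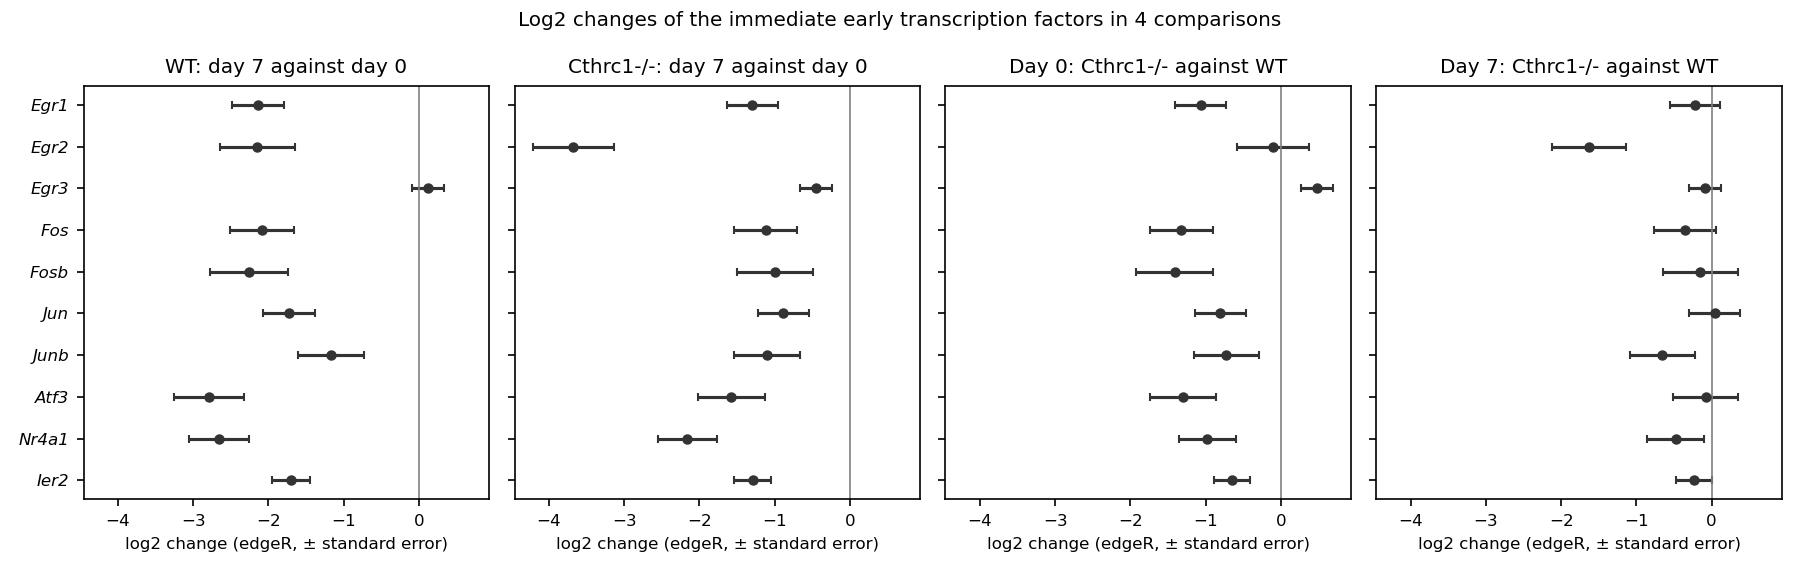
Log2 change of each of the 10 genes in 4 comparisons, with points for the edgeR estimate and bars of 1 SE. Values left of 0 are lower on day 7 (first 2 panels) or lower in Cthrc1-/- (last 2 panels), and in the last panel Egr2, at -1.63, lies furthest from 0.

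The other early-response genes, 42 transcripts such as phosphatases, RNA-decay factors and Krüppel-like factors that the same stimuli induce, were compared as a list outside the 10. This list, like the members, was chosen with earlier results of these data known. Its counts of called genes are descriptions and no separate support for the members. In WT, edgeR called 12 of the 41 tested lower on day 7 (all genes 7.10%) and 0 higher. The log2 change was below 0 for 35 and above 0 for 6, with a list median of -1.05. Arc, an actin-associated early gene best known from neurons, averaged 56.1 ± 3.74 FPKM on day 0 and 7.29 ± 4.20 FPKM on day 7 (SD, n = 3), and its log2 change was -3.17 (SE 0.634, edgeR adjusted p 0.0137). Klf4, a factor of epidermal barrier formation, averaged 399.5 ± 6.32 and 94.6 ± 47.6 FPKM (SD, n = 3) and had a change of -2.31 (SE 0.428, edgeR adjusted p 0.0106). Hbegf, an EGF receptor ligand, fell by 1.97 on the log2 scale (edgeR adjusted p 0.0119) and Hes1, a Notch target, by 1.94 (edgeR adjusted p 0.00500). Each of these 4 was called in all 21 alternative fits. The list's count was 24 without WT day 7 replicate 1 (all genes 1195), 21 without Cthrc1-/- day 0 replicate 3 (3005) and 9 to 13 without any other library. The highest change in the list was 2.06 for Ptgs2, the inducible cyclooxygenase, which was not called (SE 1.24, edgeR adjusted p 0.277) and ranged from 3.46 to 114 FPKM in WT day 7.

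In Cthrc1-/- the same list had a median log2 change of -1.01 between days, close to the WT value, and 38 of its 41 genes were below 0. None was called by edgeR, although 25 had an unadjusted p under 0.05 (all genes 2596 of 14313). DESeq2 called 17 (all genes 1409) and limma 3 (775). The smallest p-values were those of Ier5l, at -1.01 (SE 0.222, edgeR adjusted p 0.0567), and of the kinase gene Sgk1, at -1.22 (SE 0.280, edgeR adjusted p 0.0636). The list's count was 16 without WT day 7 replicate 1 (all genes 911) and 12 without Cthrc1-/- day 0 replicate 3 (522). It was 1 without Cthrc1-/- day 0 replicate 1 (154) and 0 without any other library. The interaction called 0 of the 41 by edgeR, with 6 at an unadjusted p under 0.05 (all genes 2164). It had 1 called by DESeq2 (all genes 681) and 0 by limma (4). Its smallest p-values were those of the kinase gene Plk2, at 0.89 (SE 0.264, edgeR adjusted p 0.212), and of the phosphatase gene Dusp2, at -1.75 (SE 0.601, edgeR adjusted p 0.242).

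Between genotypes on day 0, 1 of the 41 was called (all genes 5.78%), and its direction was lower. This was Myc, a growth regulator, with means of 75.8 ± 0.895 FPKM for WT against 34.0 ± 12.6 FPKM for Cthrc1-/- (SD, n = 3), which differ by -1.24 in log2 (SE 0.284, edgeR adjusted p 0.0402). Myc was called in 10 of 21 alternative fits, with edgeR, limma or DESeq2 adjusted p between 0.00106 and 0.122. For Myc the call was lost with no filter, with only the contrasted groups, and without each WT day 0 library, Cthrc1-/- day 0 replicates 2 or 3, WT day 7 replicates 2 or 3, or Cthrc1-/- day 7 replicates 1 or 2. The list's count was 8 without Cthrc1-/- day 0 replicate 1 (all genes 2146) and 7 without WT day 7 replicate 1 (1574). It was 1 without Cthrc1-/- day 7 replicate 3 (606) and 0 without any other library. On day 7, 0 of the 41 were called by edgeR, 5 had an unadjusted p under 0.05 (all genes 782), and DESeq2 and limma called 0. The smallest p-values belonged to Ptgs2, with a log2 difference of -3.58 (SE 1.32, edgeR adjusted p 0.907), and Ier3, with -1.94 (SE 0.765, edgeR adjusted p 0.907). For Ier3 the WT day 7 libraries ranged from 79.8 to 724 FPKM.

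Further relatives of the members were compared as smaller lists, also chosen with earlier results of these data known. Of 10 AP-1 partners tested, edgeR called Jund and Mafk lower in WT (all genes 7.10%) and 0 higher. The log2 change was above 0 for 5 of the 10 and below 0 for 5, with a median of 0.0018. Jund, the JUN protein present in resting cells, averaged 319 ± 40.3 FPKM on day 0 and 132 ± 17.4 FPKM on day 7 in WT (SD, n = 3) and changed by -1.45 in log2 (SE 0.209, edgeR adjusted p 0.00544). In Cthrc1-/- the Jund change was -1.39 (SE 0.209, edgeR adjusted p 0.0216), and that call was lost with only the contrasted groups in the fit and without Cthrc1-/- day 0 replicate 2 or any Cthrc1-/- day 7 library. Mafk, a small MAF protein, fell in WT by 1.24 (SE 0.247, edgeR adjusted p 0.0136), a call lost without WT day 0 replicates 2 or 3. Among 4 EGR and NR4A relatives tested, Nr4a2, an orphan receptor related to Nr4a1, fell in WT by 2.03 (SE 0.417, edgeR adjusted p 0.0148). The Nr4a2 call was lost without WT day 7 replicate 2 (adjusted p 0.0521, the highest of its 21 alternatives, which began at 3.21e-05). In Cthrc1-/- 0 of the 4 were called by edgeR, 2 had an unadjusted p under 0.05 (all genes 2596), DESeq2 called 2 (1409) and limma 0 (775). There Nr4a2 had a log2 change of -1.66 (SE 0.412, edgeR adjusted p 0.0772) and Nr4a3 of -1.73 (SE 0.642, edgeR adjusted p 0.189).

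The upstream regulators were SRF and its cofactors, CREB and its coactivators, and MAP kinase pathway members, with 21 tested. Between days in WT edgeR called 1 of the 21 lower (all genes 7.10%) and 0 higher. The log2 change was above 0 for 12 and below 0 for 9, with a median of 0.088. An unadjusted p under 0.05 was found for 6 of the 21 (all genes 4658), and DESeq2 called 6 (3551) and limma 5 (1911). The gene called by edgeR was Srf, with means of 20.1 ± 1.74 FPKM on day 0 and 14.5 ± 0.456 FPKM on day 7 (SD, n = 3) and a change of -0.66 in log2 (SE 0.121, edgeR adjusted p 0.0103), called in all 21 alternatives. On day 0 Srf was also lower in Cthrc1-/-, at 15.0 ± 0.609 FPKM (SD, n = 3), a difference of -0.53 in log2 (SE 0.120, edgeR adjusted p 0.0402). For Srf this genotype call was made in 7 of 21 alternatives. It was lost with limma, total-count scaling, no filter or only the contrasted groups, and without each WT day 0 library, Cthrc1-/- day 0 replicates 2 or 3, WT day 7 replicates 2 or 3, or Cthrc1-/- day 7 replicates 1 or 3. Between days in Cthrc1-/-, 0 of the 21 were called by edgeR, 4 by DESeq2 and 1 by limma, with 4 at an unadjusted p under 0.05. They were led by Elk3, an SRF cofactor, at 1.25 (SE 0.353, edgeR adjusted p 0.0999), and Srf at -0.38 (SE 0.120, edgeR adjusted p 0.128).

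The smaller lists were also compared between genotypes. Over all 14313 genes an unadjusted p under 0.05 was found for 4068 on day 0, 782 on day 7 and 2164 for the interaction. On day 0 edgeR and limma called 0 of 10 AP-1 partners and DESeq2 1, with 2 at an unadjusted p under 0.05. These were Mafg, a small MAF protein, at 0.36 (SE 0.112, edgeR adjusted p 0.0775) and Jdp2, a JUN dimerisation partner, at -0.99 (SE 0.413, edgeR adjusted p 0.1495). Of the 4 EGR and NR4A relatives edgeR and limma called 0 and DESeq2 1, and 1 had an unadjusted p under 0.05. This was Nab1, an EGR corepressor, at -0.52 (SE 0.138, edgeR adjusted p 0.0549), while its relative Nab2 was at 0.35 (SE 0.218, edgeR adjusted p 0.306). On day 7 edgeR, DESeq2 and limma called 0 in each of the 3 smaller lists, with an unadjusted p under 0.05 for 1 AP-1 partner, Maff, at -1.30 (SE 0.535, edgeR adjusted p 0.907), and for 0 genes of the other two lists. The interaction also gave 0 calls in each by edgeR and limma, with 1 unadjusted p under 0.05 per list, and DESeq2 called 1 AP-1 partner, 0 relatives and 1 upstream regulator. The genes were Mafg at -0.52 (SE 0.159, edgeR adjusted p 0.221), Nab1 at 0.53 (SE 0.195, edgeR adjusted p 0.2655) and the MAP kinase effector Rps6ka3 at -1.24 (SE 0.366, edgeR adjusted p 0.212).

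**Figure D3:**
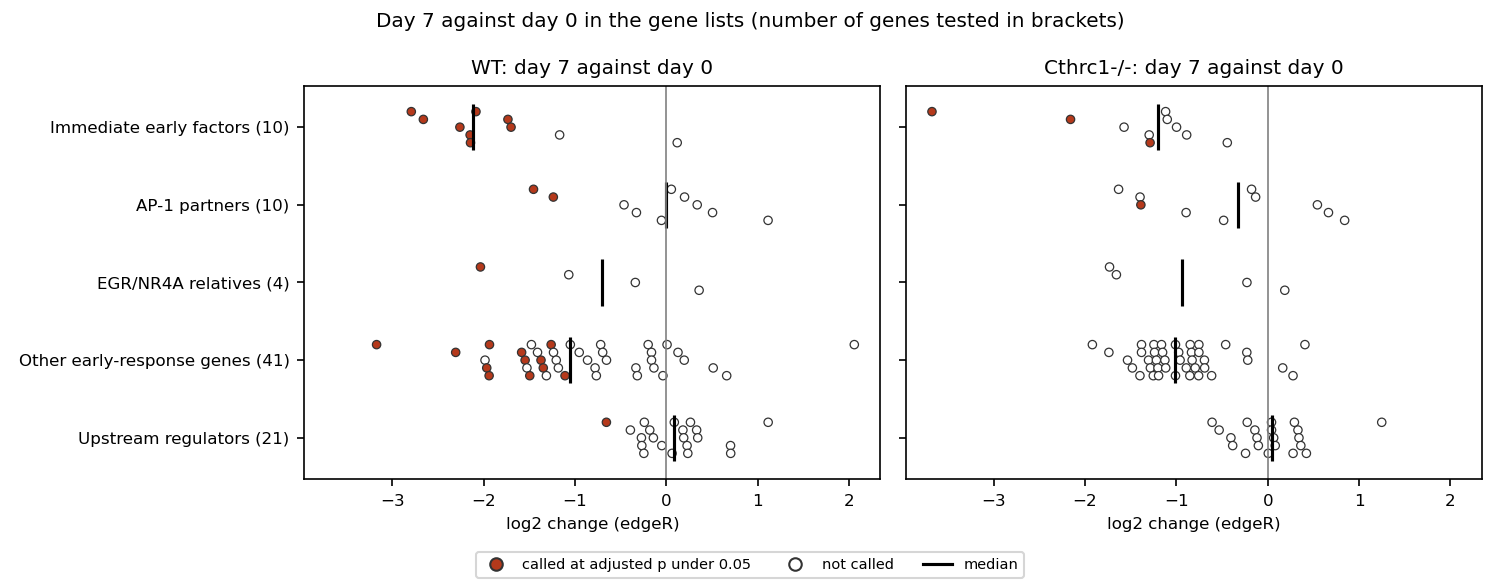
Log2 change between day 7 and day 0 in WT (left) and Cthrc1-/- (right) for the 10 immediate early factors and 4 lists of related genes, with filled points for genes called by edgeR and bars for list medians. The medians of the factors and of the other early-response genes lie left of 0 in both genotypes, and those of the upstream regulators lie at 0.088 and 0.041.

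Replicates of a group did not vary alike. The median SD of a member on the log2(FPKM + 1) scale was 0.113 in WT day 0, where the median of all genes was 0.109. It was 0.561 in Cthrc1-/- day 0 (all genes 0.260), 0.359 in WT day 7 (all genes 0.253) and 0.509 in Cthrc1-/- day 7 (all genes 0.178). In WT day 0 the highest and lowest library of a member differed by 1.08-fold (Junb) to 1.24-fold (Ier2). In Cthrc1-/- day 0 they differed by up to 4.10-fold, for Fosb. Summed over the 10 members, the level was 3616, 3959 and 3875 FPKM in WT day 0 replicates 1 to 3 and 2877, 1999 and 1264 FPKM in Cthrc1-/- day 0. On day 7 it was 1315, 924 and 1311 FPKM in WT and 952, 1364 and 667 FPKM in Cthrc1-/-. All WT day 0 sums lay above the rest, the day 7 genotypes overlapped, and of the Cthrc1-/- day 0 libraries only replicate 3 fell in the day 7 range. As a share of all FPKM it was between 0.867% and 0.986% in WT day 0 and between 0.164% and 0.346% on day 7.

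Content of the libraries moved with these sums in part. In Cthrc1-/- day 0, replicate 1 had the highest member sum and the lowest hair follicle sum (219 FPKM), and replicate 3 the lowest member sum and the highest hair follicle sum (11867 FPKM). In Cthrc1-/- day 7 the hair follicle sums were 3623, 479 and 5230 FPKM, and replicate 2, the lowest, had the highest member sum. In WT day 7 they were 1635, 3850 and 3627 FPKM, and there replicates 1 and 3, with unlike hair follicle sums, had nearly the same member sum. All 7 hair follicle markers were detected in every library except WT day 0 replicate 1, where Krt25 and Krt73 were at 0. The fibroblast sum on day 0 was 4814 to 6441 FPKM for WT and 337 to 2386 FPKM for Cthrc1-/-, without overlap. On day 7 it was 3521 to 5251 FPKM for WT, which overlapped WT day 0, and 2193 to 3447 FPKM for Cthrc1-/-. Adipocyte markers, 3 of 3 detected in every library, summed to 60.5 to 85.5 FPKM in WT day 0 and to no more than 37.0 FPKM in any other library. Several marker lists, though not the endothelial list, descended over Cthrc1-/- day 0 replicates 1 to 3 as the member sum did. Keratinocyte markers summed to 8327, 7560 and 3910 FPKM there, overlapping the 7513 to 8270 FPKM of WT day 0. Neutrophil markers summed to 88.0, 59.1 and 22.1 FPKM, above the 5.81 to 10.5 FPKM of WT day 0. Smooth muscle markers in Cthrc1-/- day 0 summed to 152, 113 and 78.5 FPKM, against 241 to 263 FPKM in WT day 0, and 3 of the 4 were called lower by edgeR. Fibroblast markers summed to 2386, 1296 and 337 FPKM, with 1 of 6 called lower. Over all genes, edgeR called 324 of 14313 lower in Cthrc1-/- on day 0. Skeletal muscle markers summed to 186, 128 and 44.4 FPKM against 204 to 482 FPKM, and macrophage markers to 181, 114 and 69.6 FPKM against 242 to 259 FPKM. Endothelial markers summed to 29.9, 35.0 and 12.3 FPKM against 43.9 to 44.5 FPKM. All 5 skeletal muscle, 5 macrophage, 4 endothelial and 3 adipocyte markers were lower in Cthrc1-/- day 0 without overlap, as were 19.8% of all genes. In each of these 4 lists 0 were called by edgeR. An unadjusted p under 0.05 was found for 1, 2, 1 and 2 of them in that order (4068 of all 14313 genes). DESeq2 called 1, 1, 0 and 2, and limma 0, 0, 0 and 1. T cell markers summed to 10.1, 5.06 and 2.03 FPKM, a range that holds the 5.96 to 6.76 FPKM of WT day 0. On day 7 smooth muscle sums were 238 to 263 FPKM for WT and 262 to 369.7 FPKM for Cthrc1-/-, and endothelial sums 41.2 to 99.5 and 65.3 to 119.8 FPKM. The part of tissue content in the differences between groups was not tested.

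Genes of the heat shock response, which tissue stress and handling also induce, were lower on day 7 too. On day 0 the 5 genes summed to 1073 to 1353 FPKM for WT and 1022 to 1183 FPKM for Cthrc1-/-. On day 7 the sums were 199 to 611 FPKM for WT and 441 to 479.6 FPKM for Cthrc1-/-. Between days edgeR called 4 of the 5 lower in WT (all genes 7.10%) and 2 of the 5, Hspb1 and Hsph1, in Cthrc1-/- (all genes 0.601%). All 5 log2 changes were below 0 in both genotypes. Hspb1, a small heat shock protein gene, fell in both, by 1.70 in WT (SE 0.253, edgeR adjusted p 0.00592) and by 1.61 in Cthrc1-/- (SE 0.252, edgeR adjusted p 0.0221). The Hspb1 call in Cthrc1-/- was lost without Cthrc1-/- day 0 replicate 2 or any Cthrc1-/- day 7 library, with edgeR adjusted p up to 0.105. The Hsph1 change in Cthrc1-/- was -0.63 (edgeR adjusted p 0.0440) and was called in 7 of 21 alternatives, and not without any WT day 0 or Cthrc1-/- day 7 library, Cthrc1-/- day 0 replicates 1 or 2, or WT day 7 replicate 2. Hspa1a and Hspa1b, near-identical copies whose reads may have been divided between them, fell in WT by 2.20 and 2.17 (edgeR adjusted p 0.0162 and 0.0172). Both calls were lost with only the contrasted groups in the fit and without WT day 0 replicates 2 or 3 or WT day 7 replicate 2. Between genotypes on day 0 edgeR, DESeq2 and limma called 0 of the 5, and 0 had an unadjusted p under 0.05. The 37 mitochondrially encoded genes took 17.8% to 21.9% of all FPKM on day 0 and 9.16% to 16.5% on day 7. Neutrophil markers summed to 5.81 to 88.0 FPKM on day 0 and 38.6 to 4829 FPKM on day 7, with Ly6g at 0 in every day 0 library, 1 WT day 7 library and 2 Cthrc1-/- day 7 libraries. Macrophage markers, 5 of 5 detected in every library, summed to 69.6 to 259 FPKM on day 0 and 287 to 1036 FPKM on day 7. The part of handling, RNA quality and inflammatory cells in the change between days was not tested.

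**Figure D4:**
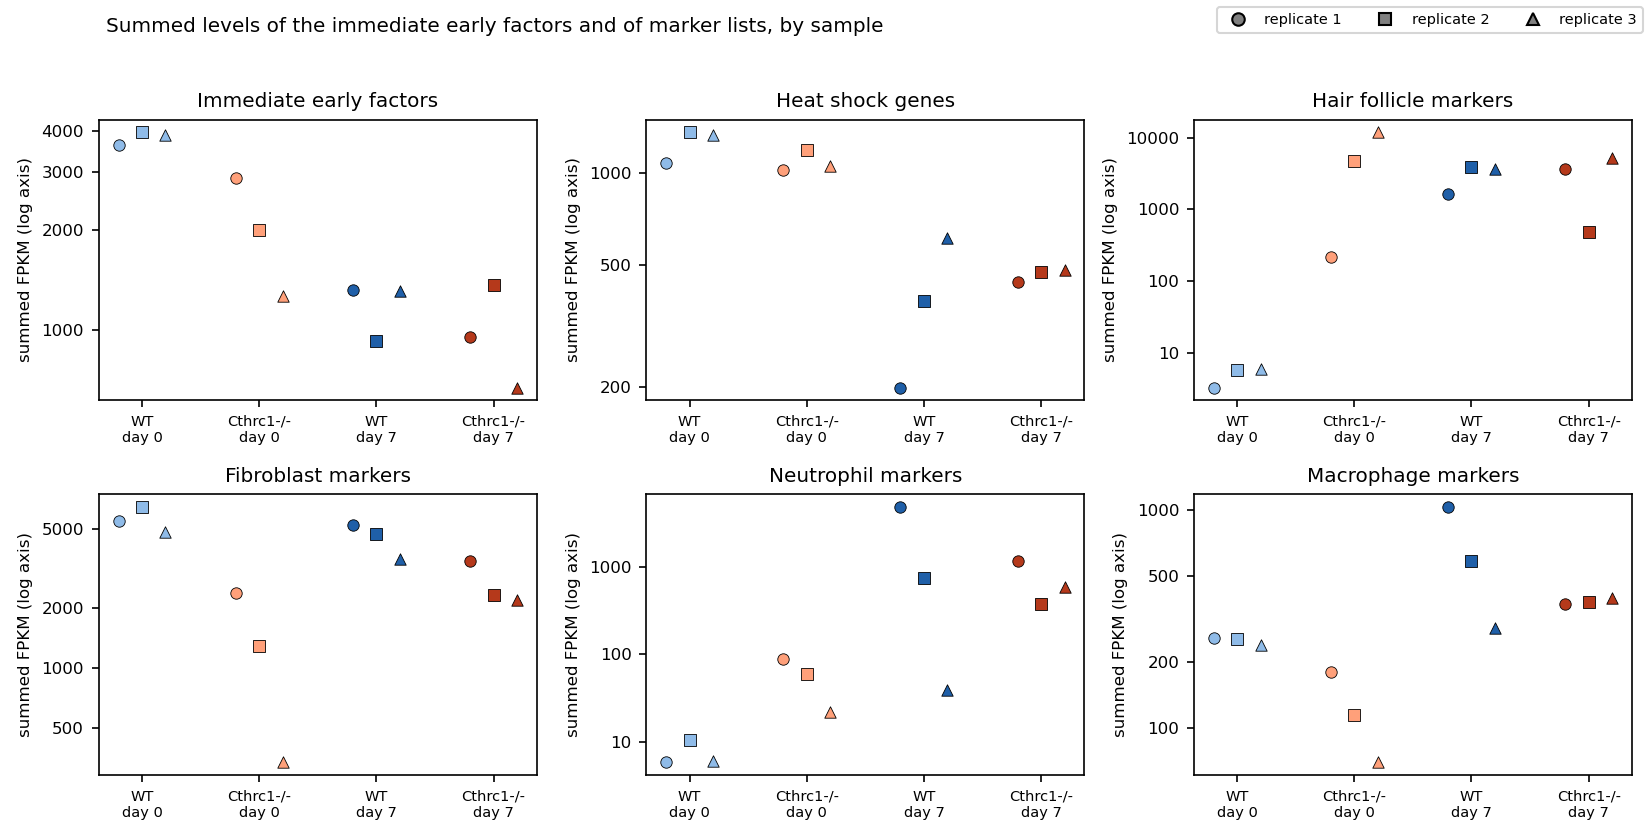
Summed FPKM (log axes) of the 10 immediate early factors and of 5 marker lists in each sample, by group, with symbols for replicates 1 to 3. The factors are highest in WT day 0, the heat shock genes are higher in all day 0 than in all day 7 samples, and within Cthrc1-/- day 0 the factors are lowest in replicate 3, where the hair follicle markers reach 11867 FPKM.

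Likeness between genes was measured as the root mean square difference of log2(FPKM + 1) over the 12 samples, after each gene was centred on its own mean. Among the members the closest pairs were Egr1 with Fos (0.183) and Jun with Ier2 (0.213), and the most distant was Egr2 with Egr3 (1.48). Egr1 lay closest to the mean of the other 9 (0.142) and Egr3 furthest (1.08), followed by Egr2 (0.874). Of 7725 other genes with a mean of at least 5 FPKM, the nearest to the mean profile of the members were Nr4a2 (0.204), Zfp36 (0.237), Sertad1 (0.253), Myc (0.256) and Ppp1r15a (0.256), where the median gene was at 0.970. Zfp36, which encodes an mRNA-decay protein, averaged 326 ± 14.5 FPKM for WT and 204 ± 91.1 FPKM for Cthrc1-/- on day 0, and 129.8 ± 37.4 and 94.8 ± 31.0 FPKM on day 7 (SD, n = 3). Ppp1r15a, a stress-induced regulatory subunit of a phosphatase, averaged 155 ± 5.42, 88.8 ± 36.0, 56.7 ± 21.8 and 38.4 ± 7.14 FPKM in the same order (SD, n = 3). Sertad1, a cell cycle regulator, averaged 135 ± 9.05 FPKM in WT day 0 and 47.4 ± 8.47 FPKM in WT day 7 (SD, n = 3).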

How the data were processed

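RNA-seq was done on 12 mouse dermis samples in 4 groups of 3, and groups and replicate numbers were read from the sample titles. The authors deposited whole-number counts and FPKM per Ensembl gene. The submitters' processing notes name cutadapt 1.9, HISAT2 2.0.4, UMI-tools, StringTie 1.3.4d, DESeq2 and edgeR with the build GRCm38, without saying what each did. Per the labels, poly(A) RNA was made into dUTP-marked libraries with molecular identifiers and sequenced from both ends. Genes without counts are listed at 0.0001 FPKM, which was read as 0. In the deposited counts, 3.16 to 4.05 times as many genes had a count of 4 as had 3 or 5 on average, so a count may not be 1 fragment, and division by 4 was an alternative. GENCODE M21 (GRCm38) named 55141 of 55401 gene IDs. Members had between 366 and 201538 counts, so counting error was small beside the spread between replicates.

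Counts were fitted with edgeR 4.0.16 (TMM, glmQLFit and glmQLFTest, two-sided, R 4.3.3) over the 14313 genes that averaged 1 FPKM or more, all 12 samples in 1 fit with a mean per group. P-values were adjusted over these genes by the Benjamini-Hochberg method. The SE of a log2 change is its size over the root of its F statistic. Positions come from GENCODE and upstream sequence from RefSeq GRCm38.p6. No upstream window of Egr1, Egr3 or Ier2 was searched. The tallies of sequence matches, including that of the CArG box, therefore say nothing about these genes. The procedure was tested on simulated counts with the same dispersion for all genes and groups. That test does not show how the fit behaves where groups differ in spread, as they do here.

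The members and gene lists were chosen with earlier results of these data known. All 10 members are described. From each other list the called genes with the largest changes were named, up to 4 in each direction, or the 2 with the smallest p where none was called. Of the AP-1 partner list 10 of 12 genes passed the filter, of the EGR and NR4A relatives 4 of 5, of the other early-response genes 41 of 42, and of the upstream regulators 21 of 22. The 5 nearest patterns were the genes with the smallest root mean square difference. Alternatives were DESeq2 1.42.0, limma 3.58.1 on log2(FPKM + 1) and log2(FPKM + 0.1), total-count and RLE scaling, no filter, counts divided by 4, a fit on the contrasted groups alone, a replicate block, and leaving out each of the 12 libraries.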

Additional observations from a re-analysis of the deposited data

How the results depend on the processing

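The sign of a member's log2 change was kept in 208 of 210 alternative values between days in WT (Egr3 the exception), 210 of 210 between days in Cthrc1-/-, 209 of 210 between genotypes on day 0 (Egr2 the exception) and 197 of 210 on day 7, where Egr1, Egr3, Fosb, Jun and Atf3 crossed 0. Counts of called genes moved far more, and the cause was not tested. As reported, 1880 genes were called between days in WT, 209 between days in Cthrc1-/-, 827 between genotypes on day 0, 3 on day 7 and 2 for the interaction. DESeq2 called 3551, 1409, 2787, 62 and 681, with 5 members between days in Cthrc1-/- and 4 on day 0. With DESeq2 the other early-response genes called were 21, 17 and 9 in the first 3 comparisons and 1 for the interaction, against 12, 0, 1 and 0 as reported. limma on log2(FPKM + 1) called 775 genes between days in Cthrc1-/-, 8 on day 7 and 4 for the interaction, and on log2(FPKM + 0.1) 773, 5 and 1. Both gave 3 other early-response genes between days in Cthrc1-/- and 2 on day 0. Total-count scaling called 747 genes between days in Cthrc1-/- and 1 for the interaction, with 2 other early-response genes in Cthrc1-/- and 2 on day 0, and RLE scaling gave 1 in Cthrc1-/-. Without the filter 275 genes were called on day 0 and 1 for the interaction, with 0 other early-response genes on day 0. With only the contrasted groups in the fit, 19 genes were called on day 0 and 89 between days in Cthrc1-/-, with 1 member and 1 other early-response gene in the latter and 0 on day 0. Division of counts by 4 kept every count within 1.5 times.

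Total-count scaling moved the median change of all genes to 0.196 in WT and 0.158 in Cthrc1-/-. It called 1669 genes higher and 543 lower between days in WT (864 and 1016 as reported), 649 and 98 in Cthrc1-/- (123 and 86), and 523 and 209 between genotypes on day 0 (503 and 324). limma on log2(FPKM + 1) called 1256 higher and 655 lower in WT and 661 and 114 in Cthrc1-/-. The replicate numbers recur in all groups, and the labels tie no number to an animal or batch. Within the 4 contrasts, deviations of same-numbered samples correlated at 0.0232 to 0.0869 (WT groups), -0.124 to 0.426 (Cthrc1-/- groups), -0.0316 to 0.054 (day 0) and -0.232 to 0.139 (day 7), so not every pair reached 0.1 in any of them. Between Cthrc1-/- day 0 and WT day 7, which no contrast sets against each other, they correlated at 0.124 to 0.222, against -0.204 to 0.114 for unlike numbers. In that comparison and between the WT groups every sample correlated best with its own number, a hint from the data and not from the design. With the replicate block 1 gene was called for the interaction and 3 other early-response genes on day 0, and 1467, 291, 883 and 2 genes in the other 4 comparisons, and Ier2 was no longer called between days in Cthrc1-/- (2 members).

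Without each library in turn, the genes called ranged from 527 to 3005 between days in WT, 5 to 911 in Cthrc1-/-, 18 to 2146 on day 0, 0 to 4 on day 7 and 0 to 242 for the interaction. Members called ranged from 4 to 8, 0 to 5 and 0 to 6 in the first 3, and other early-response genes from 9 to 24, 0 to 16, 0 to 8 and, for the interaction, 0 to 1.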
